A study of Homo sapiens with 6 samples.

Results

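Fibronectin and the latent TGF-β binding proteins (LTBPs) are extracellular matrix glycoproteins that are spliced in several forms. The splicing of their 5 genes, FN1 (ENSG00000115414.18), LTBP1 (ENSG00000049323.15), LTBP2 (ENSG00000119681.11), LTBP3 (ENSG00000168056.15) and LTBP4 (ENSG00000090006.17), was followed in NCI-H1975 cells that did or did not overexpress the RNA-binding protein SAM68. NCI-H1975 is a human lung adenocarcinoma line. The cells had been transfected by lipofectamine 2000 with 2 µg per well of the PCDNA3.1-SAM68 plasmid, or with the empty PCDNA3.1 plasmid as control, and were taken after 48 h, with 3 libraries in each group. Both groups therefore carried the vector and the reagent, transfection was transient, and only 1 cell line was used. The data were tables of rMATS, a program that lists alternative splicing events and counts, in every library, the reads crossing the junctions of each of the 2 forms of an event. Members were chosen by gene symbol and by their junction reads: each listed event of the 5 genes entered if its reads, averaged over the 6 libraries, reached 10. This gave 72 of 73 listed events of the 5 genes, out of 66393 such events in the whole series. FN1 had 7 events, LTBP1 10, LTBP2 7, LTBP3 8 and LTBP4 40. The member just inside the limit had a mean of 17.2 reads (LTBP1, a middle 3′ splice site of exon 12), and the event just outside had 7.67 reads (FN1). Libraries are numbered by their place in the tables' lists.

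Fibronectin is a dimer built of repeated modules that binds integrins and assembles into fibrils on the cell surface. Its primary transcript is alternatively spliced at 3 places: the extra domains EDB and EDA, each 1 whole exon coding for a type III module, and the connecting segment IIICS, an exon with internal splice sites whose first segment, CS1, carries the binding site for the integrin α4β1. LTBPs are chains of EGF-like repeats and 8-cysteine domains related to fibrillins. LTBP1, LTBP3 and LTBP4 can bind the latency peptide of TGF-β and hold the latent growth factor in the matrix, whereas LTBP2 does not bind latent TGF-β, and LTBP4 also serves elastic fibre assembly. Fibronectin fibrils help to lay LTBP1 down in the matrix.

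The genes lay on chr2:215360440-215436073 (FN1, minus strand), chr2:32946953-33399509 (LTBP1, plus), chr14:74498183-74612378 (LTBP2, minus), chr11:65538559-65558930 (LTBP3, minus) and chr19:40592883-40629818 (LTBP4, plus) in GRCh38. Exon numbers below follow the GENCODE 44 canonical transcripts, which have 46, 34, 36, 28 and 30 exons. Each alternative segment whose sequence is printed was coding. The sequences are shown 5′ to 3′ from GRCh38, with the alternative part in capitals and up to 20 bases of its surroundings in lower case. The fibronectin segments come first, since their inclusion tells the forms of the protein apart. EDB was exon 25 (chr2:215392931-215393203, 273 nt) and EDA was exon 33 (chr2:215380811-215381080, 270 nt).
FN1 EDB: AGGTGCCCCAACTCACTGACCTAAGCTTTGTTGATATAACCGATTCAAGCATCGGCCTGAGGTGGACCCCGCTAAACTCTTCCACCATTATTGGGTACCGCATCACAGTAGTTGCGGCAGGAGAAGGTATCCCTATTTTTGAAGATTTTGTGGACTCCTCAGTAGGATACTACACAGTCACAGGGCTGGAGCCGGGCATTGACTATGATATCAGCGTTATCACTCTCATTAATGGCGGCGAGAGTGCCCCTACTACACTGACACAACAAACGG
FN1 EDA: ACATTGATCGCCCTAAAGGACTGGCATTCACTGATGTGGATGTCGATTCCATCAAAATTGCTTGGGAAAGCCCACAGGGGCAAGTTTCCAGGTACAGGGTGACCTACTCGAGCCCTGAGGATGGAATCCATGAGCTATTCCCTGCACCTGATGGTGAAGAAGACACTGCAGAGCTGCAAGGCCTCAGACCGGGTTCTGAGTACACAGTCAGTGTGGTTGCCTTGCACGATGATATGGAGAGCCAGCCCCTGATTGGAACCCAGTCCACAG
Exon 40 (chr2:215371909-215372375, 467 nt) starts with the 360 nt (120 codons) of the IIICS. The first 75 nt of the IIICS (25 codons, chr2:215372301-215372375) are CS1, and its last 93 nt (31 codons, chr2:215372016-215372108) can be removed as an intron of their own. With CS1 and the 93 nt both kept the IIICS has 120 codons, without CS1 it has 95, without the 93 nt 89 and without both 64.
FN1 CS1 segment: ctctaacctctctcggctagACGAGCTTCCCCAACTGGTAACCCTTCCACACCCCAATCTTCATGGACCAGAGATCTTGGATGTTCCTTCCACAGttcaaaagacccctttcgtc
FN1 93-nt segment: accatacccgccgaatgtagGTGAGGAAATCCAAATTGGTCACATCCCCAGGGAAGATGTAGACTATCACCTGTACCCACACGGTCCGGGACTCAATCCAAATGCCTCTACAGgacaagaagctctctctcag
In LTBP1 exon 12 (chr2:33257284-33257511) the first 159 nt (53 codons) can be left out by a distal 3′ splice site. Exons 19 (chr2:33280039-33280158, 120 nt) and 20 (chr2:33293160-33293282, 123 nt) were listed as a mutually exclusive pair.
LTBP1 exon 12, first 159 nt: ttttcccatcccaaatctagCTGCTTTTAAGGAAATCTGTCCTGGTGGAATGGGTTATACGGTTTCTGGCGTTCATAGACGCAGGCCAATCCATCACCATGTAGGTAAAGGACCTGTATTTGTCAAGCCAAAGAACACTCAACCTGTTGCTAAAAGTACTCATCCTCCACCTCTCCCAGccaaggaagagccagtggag
LTBP1 exon 19: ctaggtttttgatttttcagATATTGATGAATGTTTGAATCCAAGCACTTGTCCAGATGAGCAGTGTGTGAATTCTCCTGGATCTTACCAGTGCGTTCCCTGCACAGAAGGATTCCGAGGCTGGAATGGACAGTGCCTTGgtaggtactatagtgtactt
LTBP1 exon 20: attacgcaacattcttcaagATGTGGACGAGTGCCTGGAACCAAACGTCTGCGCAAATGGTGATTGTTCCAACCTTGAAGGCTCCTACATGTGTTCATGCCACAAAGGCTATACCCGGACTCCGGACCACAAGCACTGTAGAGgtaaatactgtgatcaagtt
LTBP2 exon 12 (chr14:74528483-74528698, 216 nt) was skipped together with exon 11, and LTBP3 exon 24 (chr11:65540013-65540153, 141 nt) was skipped by itself. LTBP3 exon 9 (chr11:65551548-65551564) had only 17 nt.
LTBP2 exon 12: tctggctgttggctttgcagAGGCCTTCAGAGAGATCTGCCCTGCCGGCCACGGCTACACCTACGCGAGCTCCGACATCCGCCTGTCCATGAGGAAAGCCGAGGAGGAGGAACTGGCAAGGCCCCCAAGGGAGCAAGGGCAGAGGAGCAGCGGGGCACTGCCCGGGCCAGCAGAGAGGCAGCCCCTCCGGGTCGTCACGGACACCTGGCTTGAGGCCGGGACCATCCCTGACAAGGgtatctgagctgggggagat
LTBP3 exon 24: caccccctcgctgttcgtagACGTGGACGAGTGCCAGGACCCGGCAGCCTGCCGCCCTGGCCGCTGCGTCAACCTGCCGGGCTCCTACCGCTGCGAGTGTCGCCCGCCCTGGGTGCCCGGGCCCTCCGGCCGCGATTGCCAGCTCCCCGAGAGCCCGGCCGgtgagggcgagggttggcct
LTBP3 exon 9: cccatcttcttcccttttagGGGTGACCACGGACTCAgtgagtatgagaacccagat
In LTBP4 the results turned on exons 20 (chr19:40616889-40617020, 132 nt) and 21 (chr19:40617100-40617225, 126 nt), on exon 24 (chr19:40622950-40623021, 72 nt), and on the last 8 nt of exon 14 (chr19:40611977-40611984), which an alternative 5′ splice site leaves out.
LTBP4 exon 20: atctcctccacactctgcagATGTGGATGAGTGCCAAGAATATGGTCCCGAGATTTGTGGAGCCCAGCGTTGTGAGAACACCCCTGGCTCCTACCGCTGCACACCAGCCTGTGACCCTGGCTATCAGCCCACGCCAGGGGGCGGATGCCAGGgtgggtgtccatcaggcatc
LTBP4 exon 21: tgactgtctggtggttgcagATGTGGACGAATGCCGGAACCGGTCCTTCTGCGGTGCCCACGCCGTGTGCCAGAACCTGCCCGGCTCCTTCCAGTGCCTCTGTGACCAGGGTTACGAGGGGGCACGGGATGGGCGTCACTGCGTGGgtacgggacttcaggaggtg
LTBP4 exon 24: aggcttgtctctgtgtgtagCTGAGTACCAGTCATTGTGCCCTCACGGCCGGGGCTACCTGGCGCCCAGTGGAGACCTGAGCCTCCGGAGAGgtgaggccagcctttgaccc
LTBP4 exon 14, last 8 nt: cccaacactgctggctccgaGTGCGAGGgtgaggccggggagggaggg

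The libraries held 16951876 to 19737729 junction reads in the skipped exon table. The overexpressed gene checked the labels: junction reads of KHDRBS1, which encodes SAM68, were 311, 328 and 316 rpm in control and 1230, 1260 and 1276 rpm in SAM68 libraries. Here rpm are the reads of a gene's most deeply read event per 1000000 such reads of all genes. The log2 fold change was 1.98 ± 0.05 (SE, n = 3 and 3; limma adjusted p = 1.16e-21). Of 10 epithelial markers 5 had listed events, with a summed level of 734 to 997 rpm in control and 763 to 775 rpm in SAM68 libraries. They did not move together: 3 of the 4 tested had an unadjusted p under 0.05 and none was called by limma. KRT18 was at 471 to 492 rpm in control and 521 to 530 rpm in SAM68 libraries, KRT7 at 3.02 to 4.48 and 1.26 to 2.20 rpm, and KRT8 at 520, 253 and 236 rpm and then 229 to 248 rpm, so that control library 1 gave the highest sum. The part of these differences in the results was not tested. Of 6 fibroblast markers only DCN was listed, at 0 to 1.43 rpm over the libraries. None of 3 endothelial markers was listed, and of 3 immune markers only CD68, at 92.0 to 102 rpm in control and 98.0 to 104 rpm in SAM68 libraries. Genes without a listed alternative event are absent from such tables whatever their level.

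The first comparison asked whether SAM68 changed the splicing of the 5 genes. PSI (percent spliced in) is the share of the inclusion form, after the reads of each form are divided by the length over which they can be counted. Calling an event required that its adjusted p was below 0.05 and that mean PSI moved by 10 points or more. None of the 72 member events was called by the quasi-binomial test, against 17 of 66392 events tested in the whole series (0.0256%). At the same limits the paper reports far more regulated events with rMATS, whose test was not rerun here. At an unadjusted p under 0.05 there were 14 member events, of which 2 were in FN1, 3 in LTBP1 and 9 in LTBP4, against 8.42% of all events tested. Limma on the logit of PSI called 0 members (0.00452% of all events). A likelihood ratio test that ignores the spread between libraries called 7 (2.04% of all events), and a fit with dispersions set to at least 1 before moderation, added after the data were seen, called 5 (0.14%). In both, 4 of the member calls rest on 1 shared LTBP4 junction. PSI did not overlap between the groups in 7 of 71 member events with a value in every library, compared with 6.11% of all events. The median absolute change was 1.16 points in the members and 1.24 points over all events tested. It was 5.44 points in FN1 and 5.18 points in LTBP1, whose events were read less deeply, and 0.75 to 0.91 points in the other LTBP genes. The changes against read depth are plotted for all 72 events. Many of the LTBP4 events share junctions, so they are not separate measurements.

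**Figure D1:**
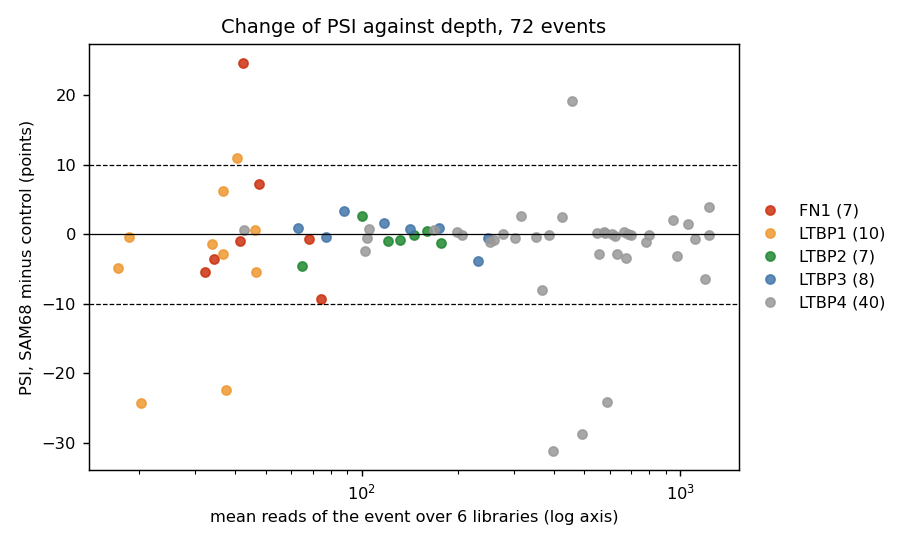
Change of mean PSI (SAM68 minus control, in points) of each of the 72 member events against its mean reads over 6 libraries on a log axis, coloured by gene, with dashed lines at 10 points either way. Of these events 57 lie within 5 points of 0, and 8 lie at or beyond 10 points.

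Fibronectin in these cells mostly contained EDA and mostly lacked EDB. EDA inclusion was 90.8%, 95.5% and 96.6% in control and 81.0%, 95.7% and 78.4% in SAM68 libraries. Thus 2 of the SAM68 libraries lay below every control library and the other lay among them. The means were 94.3% ± 3.08 and 85.1% ± 9.35 (SD, n = 3 each), a difference of -9.25 points, and the event was not called (quasi-binomial test, adjusted p = 0.565). The difference was -14.6 points without SAM68 library 2 and -5.92 points without SAM68 library 3. The reads that skip EDA numbered 4, 2 and 1 in control and 11, 1 and 8 in SAM68 libraries.

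EDB inclusion was 35.5%, 22.7% and 22.8% in control and 33.3%, 37.5% and 31.9% in SAM68 libraries. The groups overlapped through the first control library. The means were 27.0% ± 7.35 and 34.2% ± 2.90 (SD, n = 3 each), a difference of 7.25 points (adjusted p = 0.565), or of 11.5 points without control library 1. EDA and EDB thus had differences of opposite sign, and neither was called.

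The largest fibronectin difference was at the CS1 segment. Reads joining exon 39 to the start of CS1 numbered 50, 22 and 34 in control and 46, 38 and 38 in SAM68 libraries. Reads joining it to the site behind CS1 numbered 15, 10 and 0 in control libraries and 0 in every SAM68 library. The whole IIICS was spliced out in 1, 1 and 0 reads in control and 1, 2 and 0 reads in SAM68 libraries. The splice past CS1 was thus read in 2 control libraries, and neither in control library 3 nor in any SAM68 library. As a share of these junction reads, CS1 was spliced out in 22.7% (95% Wilson interval 14.3 to 34.2) of 66 reads and in 30.3% (17.4 to 47.3) of 33 reads in the first 2 control libraries. In control library 3 it was 0 of 34, which allows up to 8.82%, and over the SAM68 libraries 0 of 125, which allows up to 2.40%. Intervals and such limits cover counting error only. As PSI, CS1 inclusion was 68.0%, 58.4% and 100% in control and 100% in each SAM68 library, a difference of 24.5 points with adjusted p = 0.244 in the quasi-binomial test. The exact permutation test over libraries, two-sided, gave p = 0.4, where 0.1 is the smallest p that 3 against 3 libraries allow. The listed inclusion reads equalled those of the junction alone, and without division by length the difference was 18.1 points. The event was called by the likelihood ratio test (adjusted p = 1.69e-06) and with dispersions set to at least 1 before moderation (adjusted p = 0.0371). The difference was 36.8 points without control library 3 and 16.0 points without control library 2, and with any 1 library left out the adjusted p lay between 0.706 and 0.739. The paper picked FN1 among the genes for a separate check of its RNA-seq and states that SAM68 regulates FN1 splicing. That check is not part of the data used here.

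At its other end the IIICS mostly lacked the 93-nt segment. Retention of the segment was 5.36%, 10.9% and 7.24% in control and 0%, 0% and 7.15% in SAM68 libraries, from 3, 5 and 4 and from 0, 0 and 5 reads. The difference was -5.44 points (adjusted p = 0.675) and the groups overlapped. The splice that removes the segment had 24 to 38 reads per library. The stretches of IIICS between these sites were listed as skipped exons of 267 and 192 nt. The 267-nt stretch was included at 97.6%, 95.8% and 100% in control and 97.3%, 94.1% and 100% in SAM68 libraries (-0.66 points, adjusted p = 0.885). The 192-nt stretch was included at 95.8%, 94.4% and 100% in control and 93.1%, 86.7% and 100% in SAM68 libraries (-3.50 points, adjusted p = 0.751), and the difference ranged from -6.87 points without SAM68 library 3 to -0.21 points without SAM68 library 2. All of them overlapped. The whole IIICS against its loss was at 96.3%, 93.1% and 100% in control and 95.8%, 90.5% and 100% in SAM68 libraries (-1.03 points, adjusted p = 0.930). At each end taken alone, the more common choice was to keep CS1 and to remove the 93 nt, which together would give the form of 89 codons.

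**Figure D2:**
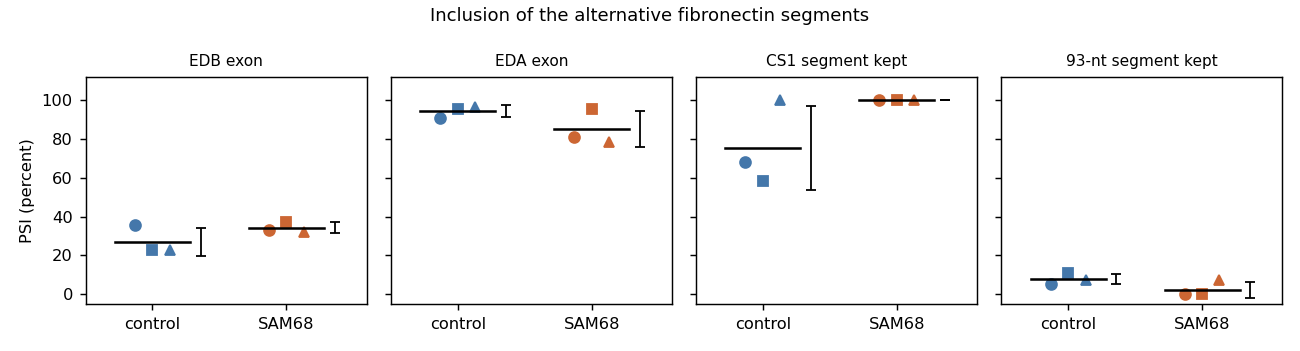
PSI in percent of EDB, EDA, the CS1 segment and the 93-nt segment of FN1 in the 3 control (blue) and 3 SAM68 (orange) libraries. Circle, square and triangle mark libraries 1, 2 and 3, the line is the mean and the bar beside it 1 SD; CS1 is at 100% in every SAM68 library and in 1 control library.

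LTBP1 had the lowest depth of the LTBP genes. The groups did not overlap in 2 of its 10 events, compared with 6.11% of all events. For exons 19 and 20, inclusion of exon 19 against exon 20 was listed as 49.1%, 50.3% and 48.8% in control and 21.3%, 37.8% and 22.1% in SAM68 libraries. All SAM68 libraries lay below all control libraries, with a difference of -22.3 points (quasi-binomial p = 0.0148, adjusted p = 0.401; exact permutation p = 0.1, the smallest possible). The pair was not exclusive in these cells. As a single skipped exon, exon 19 was included at 100% in each control library and at 92.0%, 91.6% and 100% in SAM68 libraries, and the junction from exon 18 to exon 20 had 0 reads in each control library and 2, 2 and 0 in the SAM68 libraries. The value thus compares reads at junctions on either side of exons that were joined in series, 20, 28 and 16 against 21, 28 and 17 in control and 8, 9 and 7 against 30, 15 and 25 in SAM68 libraries. The inclusion of exon 19 against its own skipping differed by -5.46 points (adjusted p = 0.565).

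Exon 12 of LTBP1 used its first and its distal 3′ splice site. The distal site, which leaves out the 53 codons, had 14, 7 and 10 reads in control and 18, 12 and 8 in SAM68 libraries, and the first site had 5, 18 and 14 and then 27, 18 and 19. Keeping of the 159 nt was 33.3%, 72.0% and 55.6% in control and 47.8%, 46.7% and 57.9% in SAM68 libraries, with a difference of -2.83 points (adjusted p = 0.863) and overlapping groups. Its inclusion reads, 14, 36 and 25 in control and 33, 21 and 22 in SAM68 libraries, also count reads crossing the distal site within the exon. From the first-site and distal-site junctions alone, the mean share of the first site was higher in SAM68 libraries. A second event, between a middle site 84 nt into the exon and the distal site, gave 29.1%, 62.1% and 41.2% in control and 17.5%, 13.7% and 28.5% in SAM68 libraries. The groups did not overlap and differed by -24.2 points (adjusted p = 0.670), or by -15.2 points without control library 2, but the junction of the middle site had 0 reads in 5 libraries and 2 in SAM68 library 3. All its other inclusion reads, out of 9, 18 and 11 in control and 6, 3 and 5 in SAM68 libraries, cross the distal site within the exon, which the longest form gives too. The remaining 3′ splice site event, first against middle site, stayed at 100% in 5 libraries and was 85.3% in SAM68 library 3.

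Exon 5 of LTBP1 (chr2:33134793-33134960, 168 nt) was included at 100%, 68.4% and 75.0% in control and 100%, 86.0% and 90.0% in SAM68 libraries (difference 10.9 points, adjusted p = 0.565). One library of each group had no skipping read. Exon 25 (126 nt) lay between 72.9% and 92.7% over the 6 libraries, with a difference of 6.21 points (adjusted p = 0.579). Exon 16 (126 nt), one of the deepest LTBP1 events, was included at 100%, 92.1% and 100% in control and 94.1%, 100% and 100% in SAM68 libraries, with a difference of 0.67 points (adjusted p = 0.985), whose sign depended on single libraries.

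In LTBP2 the most variable event set exon 12 against a junction from exon 10 to exon 13, which skips exons 11 and 12 together. Its listed inclusion was 84.0%, 81.8% and 57.6% in control and 83.3%, 66.7% and 59.6% in SAM68 libraries. Inclusion reads numbered 63, 63 and 57 in control and 50, 36 and 53 in SAM68 libraries. The junction from exon 10 to exon 12 gave 2 of them in SAM68 library 1 and 0 elsewhere. The others crossed from exon 12 to exon 13 but were divided by the length of both junctions. The listed inclusion is therefore lower than the plain share of reads. The libraries of each group covered a wide range, and the means of 74.5% ± 14.7 and 69.9% ± 12.2 (SD, n = 3 each) differed by -4.61 points (adjusted p = 0.743). The joint skipping had 6, 7 and 21 reads in control and 5, 9 and 18 in SAM68 libraries. Exon 18 (chr14:74516822-74516941) was included at 93.4%, 98.6% and 100% in control and at 100% in each SAM68 library, from 4, 1 and 0 skipping reads in control (2.65 points, adjusted p = 0.565, and 0.69 points without control library 1). The deepest LTBP2 event was listed as exon 25 against exon 26, with 132 to 206 reads. No skipped-exon event of either exon was listed, so the value is a ratio between them and not the inclusion of exon 25. It was 40.2%, 40.5% and 47.5% in control and 32.2%, 46.2% and 46.0% in SAM68 libraries (-1.29 points, adjusted p = 0.922). Against their loss alone, exons 5, 8 and 11 stayed at 97.3% to 100% in every library (adjusted p = 0.565 each): exon 5 was at 98.7% in control library 3, exons 8 and 11 were at 97.3% and 97.4% in SAM68 library 1, and all 3 were at 100% elsewhere.

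LTBP3 mostly lacked exon 24, and all 8 of its events changed by under 5 points. Exon 24 was included at 29.1%, 29.8% and 36.4% in control and 24.2%, 28.3% and 31.5% in SAM68 libraries. The groups overlapped and the difference was -3.78 points (adjusted p = 0.565), from 179 to 264 reads per library. Leaving out control library 3 gave -1.47 points and leaving out SAM68 library 1 gave -1.89 points. The 17-nt exon 9, whose loss shifts the reading frame, was included at 93.3%, 93.6% and 100% in control and 100%, 97.0% and 100% in SAM68 libraries (3.37 points, adjusted p = 0.565, and 2.22 to 5.55 points with 1 library left out). The events of exons 6, 12 and 13 were at 100% except in 1 library each, which was control library 2 for exon 6 (97.2%), SAM68 library 1 for exon 12 against its loss alone (98.4%) and control library 1 for exon 13 (95.1%), where the skipping reads lacked exons 12 and 13 together. The event of exon 12, the most deeply read at 225 to 291 reads, differed by -0.53 points.

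**Figure D3:**
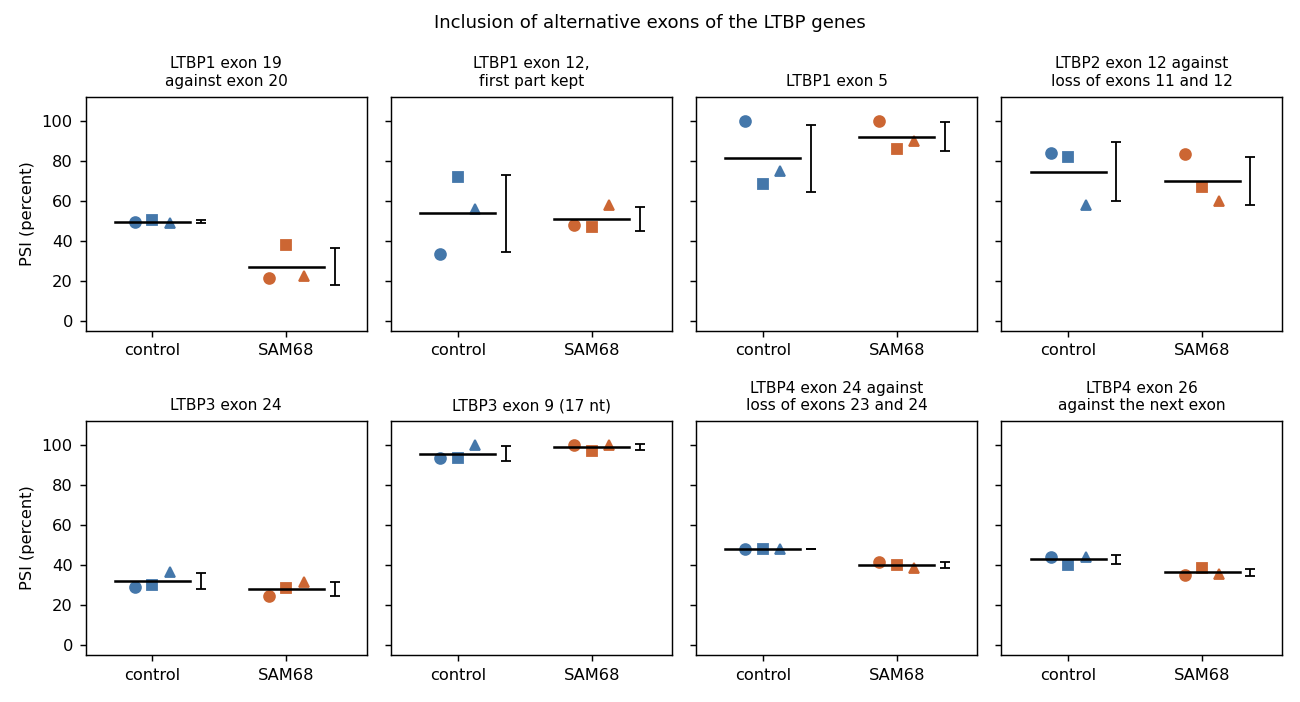
PSI in percent of 8 LTBP events in the 3 control (blue) and 3 SAM68 (orange) libraries, with library marks, mean and SD as in the plot for fibronectin. LTBP1 exon 19 against 20, LTBP4 exon 24 against the loss of exons 23 and 24 and LTBP4 exon 26 against 27 do not overlap between groups; no event shown passed the test.

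LTBP4 was the most deeply read of the 5 genes, and its largest differences came from 1 junction. Exon 19 was joined to exon 20 by 426, 411 and 410 reads in control and 395, 359 and 309 reads in SAM68 libraries. It was joined to exon 21 by 48, 10 and 62 and by 39, 43 and 50 reads. It was joined directly to exon 22, past exons 20 and 21, by 0, 187 and 0 reads in control and by 161, 93 and 187 reads in SAM68 libraries. The junction was thus present in all SAM68 libraries and in control library 2, and had no read in the other control libraries. Its share of the reads leaving exon 19 was 30.8% (95% Wilson interval 27.2 to 34.5) of 608 reads in that control library and 27.1% (23.6 to 30.8), 18.8% (15.6 to 22.5) and 34.3% (30.4 to 38.3) in the SAM68 libraries. In control libraries 1 and 3 it was 0 of 474 and 0 of 472 reads, which allows up to 0.63% and 0.64%. The mean share was 10.3% ± 17.8 in control and 26.7% ± 7.74 in SAM68 libraries (SD, n = 3 each), a difference of 16.4 points with exact permutation p = 0.3, two-sided. Without control library 2, the only library left out for this share, the difference was 26.7 points.

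This junction is the skipping form of 4 exon events and part of a mutually exclusive event, which were singled out after their values were seen. In 1 of them, a 40-nt exon between exons 19 and 20 that is not in the canonical transcript, the included form had at most 3 reads per library. In the others the listed inclusion of exon 20 differed by -24.1 points, of a longer form of exon 20 by -28.7 points and of exon 21 by -31.1 points, and the event listed as exon 22 against exon 23 by 19.2 points. Exon 22 joined to exon 23 was included at 99.7% or more in every library, so these exons too occurred in series. Exon 21 was at 100%, 45.2% and 100% in control and 49.9%, 58.5% and 43.4% in SAM68 libraries. None of these 4 passed the quasi-binomial test (adjusted p = 0.498, 0.461, 0.511 and 0.334), and their own dispersions were 59.7 to 88.4, where 1 is counting error alone. Moderation lowered the dispersions used in the test to between 11.5 and 15.9. All 4 were called with dispersions set to at least 1 before moderation (adjusted p up to 3.97e-07) and by the likelihood ratio test. Without control library 2 the differences were -38.5, -44.4, -49.4 and 29.2 points in the same order. The smallest differences with 1 library left out were -16.9, -20.9, -22.0 and 13.7 points. With any 1 library left out the adjusted p of exon 21 lay between 0.653 and 0.729. A form at 0 reads in one library and at 10 or more in another of its group, as here, occurred in 5 of the 72 member events (4 in LTBP4, 1 in FN1), against 4.34% of all events tested. Loss of exons 20 and 21 together removes a multiple of 3 bases, since each is one.

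**Figure D4:**
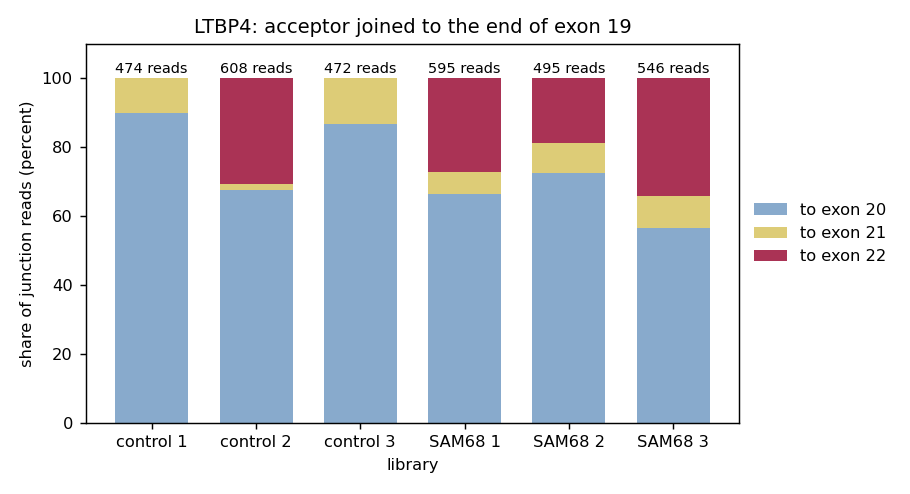
Share in percent of the LTBP4 junction reads leaving exon 19 that reach exon 20, exon 21 or exon 22 in each of the 6 libraries, with the reads behind each bar above it. The direct junction to exon 22 takes 18.8% to 34.3% in the SAM68 libraries and 30.8% in control 2, and has no read in control 1 and control 3.

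A second LTBP4 junction joined exon 22 to exon 25, past exons 23 and 24. Set against it, the listed inclusion of exon 24 was 48.0%, 48.2% and 47.9% in control and 41.5%, 40.1% and 38.4% in SAM68 libraries. The inclusion reads numbered 187, 276 and 242 in control and 202, 143 and 165 in SAM68 libraries, of which the junction from exon 22 to exon 24 gave 6, 19 and 13 and then 0, 5 and 0. The others crossed from exon 24 to exon 25, which forms with exon 23 give too, so the value is not the inclusion of exon 24 directly after exon 22. All SAM68 libraries lay below all control libraries, and the means of 48.0% ± 0.13 and 40.0% ± 1.55 (SD, n = 3 each) differed by -8.01 points (quasi-binomial p = 0.00351, adjusted p = 0.380; exact permutation p = 0.1, the smallest possible). Within the groups the libraries varied less than counting error would give, with an own dispersion of 0.19. Exon 24 by itself, between exons 23 and 25, was included at 75.4%, 75.3% and 71.0% in control and 72.9%, 67.2% and 71.5% in SAM68 libraries, where the groups overlapped (-3.43 points, adjusted p = 0.565). The reads that skip exons 23 and 24 together numbered 131, 192 and 170 in control and 184, 138 and 171 in SAM68 libraries, and those that skip exon 24 alone 116, 144 and 153 and then 133, 130 and 123.

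Against the loss of exon 23 alone (chr19:40622401-40622667, 267 nt), this exon was included at 98.7%, 96.7% and 97.4% in control and 100%, 98.9% and 100% in SAM68 libraries. The reads that skip only exon 23 were the 6, 19 and 13 in control and 0, 5 and 0 in SAM68 libraries named above, and the larger number that skip exons 23 and 24 together do not enter this event. The groups did not overlap and differed by 2.03 points (quasi-binomial adjusted p = 0.310; exact permutation p = 0.1). The 5′ splice site that leaves out the last 8 nt of exon 14, and so shifts the reading frame, had 11, 6 and 10 reads in control libraries and 0, 2 and 0 reads in SAM68 libraries. Use of the full exon was 95.7%, 98.3% and 97.3% in control and 100%, 99.2% and 100% in SAM68 libraries (2.64 points, quasi-binomial adjusted p = 0.513; exact permutation p = 0.1). The listed inclusion of both events was above 95% in every library.

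Exon 26 against exon 27, listed as exclusive, was the LTBP4 event with the smallest p, at 44.0%, 40.0% and 44.2% in control and 34.9%, 38.2% and 35.7% in SAM68 libraries. The groups did not overlap and differed by -6.45 points (quasi-binomial p = 0.000837, adjusted p = 0.0955). With dispersions set to at least 1 before moderation the adjusted p was 0.0418, but the change is smaller than the limit of 10 points. As with the LTBP1 pair, these exons were joined in series. Exon 26 alone was included at 92.0% to 95.3% and exon 27 alone at 99.6% to 100%, and the junction that skips exon 27 had at most 2 reads per library. The event listed as exon 27 against exon 28, with 806 to 1084 reads, was at 56.2%, 60.3% and 58.6% in control and 53.9%, 56.1% and 55.9% in SAM68 libraries. These groups did not overlap either and differed by -3.10 points (quasi-binomial adjusted p = 0.663; exact permutation p = 0.1). Exon 28 alone was included at 96.7% or more in every library, so that this value too compares junctions of exons joined in series. Exon 27 against its skipping, with 1092 reads or more per library, was at 99.6% in SAM68 library 2 and higher in the others, and differed by -0.07 points (adjusted p = 0.750). The event listed as exon 23 against exon 25, with 1047 to 1376 reads, was at 44.8%, 49.0% and 44.7% in control and 52.1%, 52.2% and 45.8% in SAM68 libraries (3.90 points, adjusted p = 0.558, and 6.01 points without SAM68 library 3). Exons 23 and 25 were joined to each other by 116 to 153 reads per library, so both exons also occurred together in 1 transcript. Among events with both forms well read, exon 21 after exon 20 was included at 70.0%, 75.9% and 67.3% in control and 71.9%, 66.6% and 66.3% in SAM68 libraries (-2.79 points, adjusted p = 0.565). The 40-nt exon had 0 to 5 inclusion reads per library in each of its events. Over all 40 LTBP4 events 34 changed by under 5 points, and 16 had an inclusion of at least 95% in every library.

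The exons share features that the choice of events did not use. Of 42 distinct exons listed as skipped in the 5 genes, 31 (73.8%) had a length that is a multiple of 3, against 40.5% of 38685 such exons tested in the series. The share was 4 of 4 in FN1, where 2 are overlapping stretches of the IIICS exon, 5 of 5 in LTBP1, 66.7% in LTBP2, 57.1% in LTBP3 and 70.0% in LTBP4. The motif TAAA, searched on the transcript strand only, is a core of the sequences that SAM68 binds. It was present within 100 nt upstream of 7 of the 42 exons (16.7%) and within 100 nt downstream of 6 (14.3%), against 40.9% and 42.1% of all exons tested. In LTBP1 alone it was upstream of 3 of 5 exons (60.0%), which were exons 5, 16 and 19, and it stood 3 times downstream of exon 16. It stood once upstream of EDA and once downstream of EDB. In LTBP4 it stood once upstream of exon 20 and of exon 23, once downstream of exon 22 and 4 times downstream of the 40-nt exon. It was in neither window of LTBP4 exons 21 and 24, LTBP2 exon 12 or LTBP3 exon 24. A match of letters is a description of the window and no binding site.

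The second comparison asked whether the reads of the genes themselves changed. None of the 5 genes was called by limma (adjusted p under 0.05 and a log2 fold change of at least 1), against 5 of 10147 genes tested (0.0493%), and with no limit on the fold change none was called either (0.414% of genes). At an unadjusted p under 0.05 there was 1 of the 5, LTBP4, against 12.1% of genes. LTBP4 had 217, 219 and 230 rpm in control and 190, 211 and 192 rpm in SAM68 libraries. All SAM68 libraries lay below all control libraries, with a log2 fold change of -0.17 ± 0.07 (SE, n = 3 and 3; limma adjusted p = 0.276). With the reads of all its events summed it was -0.09. In such bulk libraries fewer cells with the RNA and less RNA per cell cannot be told apart. FN1 had 14.3, 13.8 and 9.70 rpm in control and 16.6, 8.44 and 12.1 rpm in SAM68 libraries, a log2 fold change of -0.06 ± 0.24 that changed sign with the scaling. LTBP1 had 11.2, 8.11 and 6.86 rpm and then 7.26, 8.07 and 5.87 rpm (-0.27 ± 0.26), with -0.08 when control library 1 was left out and -0.06 when all events were summed. LTBP2 had 26.2, 31.2 and 30.8 rpm and then 32.5, 24.2 and 36.1 rpm (0.06 ± 0.15), and LTBP3 had 41.0, 46.3 and 43.7 rpm and then 38.8, 41.3 and 42.4 rpm (-0.10 ± 0.12). The 4 genes other than LTBP4 overlapped between groups, with limma adjusted p from 0.737 to 0.948. Levels are not compared between genes, since the event that stands for each gene counts reads over a different length. The log2 fold changes are of rpm plus 0.5.

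**Figure D5:**
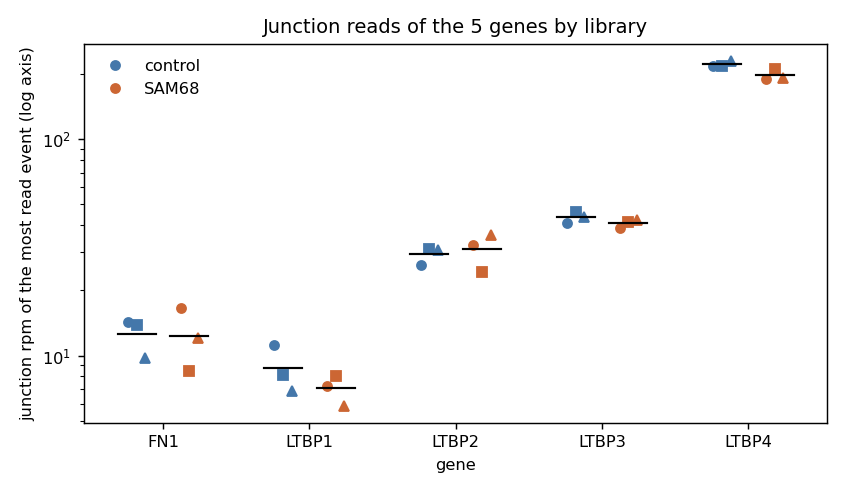
Junction reads per 1000000 (rpm) of the most deeply read event of each of the 5 genes, on a log axis, in the 3 control (blue) and 3 SAM68 (orange) libraries, with marks for libraries 1 to 3 and lines at the means. LTBP4 lies at 217 to 230 rpm in control and 190 to 211 rpm in SAM68 libraries; the groups of the other genes overlap.

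The genes whose rpm followed each member most closely over the 6 libraries, among 10146 others, were NRBF2, HDAC5 and CCDC57 for FN1 (Pearson r of log2 rpm 0.981 to 0.990). They were BCAT1, HIP1R and FKBP8 for LTBP1 (0.980 to 0.986), WDR36, ANP32B and EIF4G1 for LTBP2 (0.985 to 0.990), and PPARD, PPP6C and KLHL24 for LTBP3 (0.978 to 0.992). For LTBP4 they were CDK2, RAB18 and TEAD4 (0.991 to 0.997). These describe 6 points picked from many genes, and libraries of one group share their treatment.

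Other genes of the pathway were likewise not called. The lists held 59 genes, of which 30 had a tested event, with 176 events in all. None of these events was called by the quasi-binomial test, 14 had an unadjusted p under 0.05 (8.42% of all events), limma on the logit of PSI called 0 and the likelihood ratio test 1. By role, 70 events belonged to TGF-β ligands and their activators, 29 to receptors and SMADs, 50 to microfibril and matrix partners, 12 to fibronectin receptors and 15 to TGF-β response genes. At the level of junction reads none of the 30 genes was called by limma and 3 had an unadjusted p under 0.05 (12.1% of all genes). TGFB1, a ligand held by LTBPs and chosen as an example after values were seen, had a mean of 440 ± 16.9 rpm in control and 436 ± 13.8 rpm in SAM68 libraries (SD, n = 3 each). The median log2 fold change was -0.06 over the 30 genes and -0.03 over all genes tested.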

How the data were processed

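RNA of 6 libraries was sequenced as paired-end reads. Per the submitters' processing notes, fastp 0.20.0, HISAT2 2.1.0 and CASAVA 1.4 were used with GRCh38; the rMATS version is not given in the sources used here. The authors deposited rMATS tables with lists of raw junction counts per group and form; their p-values and differences of PSI were not used. The first list was taken as control, as the study's plots order the groups. A3SS lists regrouped by a spreadsheet were rebuilt from the listed inclusion levels (160 events), and 115 A3SS events that could not be resolved were left out. No kept event of the 5 genes needed rebuilding. PSI was tested in R 4.3.3 with a quasi-binomial model, dispersions moderated within event type by limma 3.58.1 and then not below 1, and Benjamini-Hochberg adjustment within type. Genes used limma on log2(rpm + 0.5) with a mean of at least 10 reads. On simulated data of 66393 events the event test found 90 of 200 shifts of 30 points with 0 false calls, and on 10147 genes the gene test found 199 of 200 changes of 4-fold. Shifts were placed only in well read events of intermediate inclusion and changes only in well read genes. Recovery in thinly read events, or in events with nearly full or rare inclusion, was not tested. Named events were every FN1 event and, for each LTBP gene, called events, the 3 smallest p and the 2 deepest; other LTBP events in the text were picked after their values were seen. Members and gene lists were chosen with earlier results of these data known. The lists carry no replicate numbers. Quasi-binomial and limma p-values rest on the spread between these libraries after it was moderated toward that of other events or genes. Likelihood ratio p-values leave that spread out. The values of 1 pathway gene are not reported here.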

Additional observations from a re-analysis of the deposited data

How the results depend on the processing

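No paired analysis was possible because the lists in the tables carry no replicate numbers. Member events called were 0 in the reported test, 7 with the likelihood ratio test and 5 with dispersions set to at least 1 before moderation, an alternative added after the data were seen. They were 0 under every other alternative run, each left-out library included. Pathway events called were 0, and 1 with the likelihood ratio test, and the calls among member and pathway genes stayed at 0. Over all events the count was 17 in the reported test, 1356 with the likelihood ratio test, 93 with the dispersions set to at least 1 first, 3 with limma, 2 with each event's own dispersion, 3 with the larger of the 2 dispersions, 3 at a mean of at least 1 read, 64 and 40 with no limit and a limit of 5 points, and 2 to 3 with 1 library left out. Of 36 values named for events and genes, 7 changed sign under some alternative, none of them called. With 1 library left out, the whole IIICS against its loss ranged from -3.31 to 1.45 points, the 267-nt IIICS exon from -2.08 to 0.86, LTBP1 exon 16 from -1.95 to 2.62, LTBP2 exon 25 against 26 from -3.67 to 3.33 and LTBP4 exon 27 from -0.132 to 0.0505 points. On the log2 scale FN1 reads ranged from -0.29 to 0.18 and LTBP2 reads from -0.0611 to 0.22. FN1 became 0.0043 and LTBP2 -0.0596 with the reads of all events summed, and FN1 became 0.0016 with quantile normalization. FN1 events had 26 to 105 reads per library and LTBP1 events 5 to 65, and the detection of shifts under 30 points was not tested.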
